A study of Homo sapiens with 2 samples.

Results

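The short arm of chromosome 6 carries a dense cluster of nuclear tRNA genes, and 144 of the 443 in the RefSeq annotation of GRCh38 start there between 26 and 29 Mb. All 144 were taken as members, whatever their isotype, and each was marked when a region of the deposited list shared at least 1 base with it. R-loops, structures in which RNA pairs with one DNA strand and displaces the other, had been mapped by CUT&Tag. The cells were OMM2.3, an established line of human uveal melanoma. Both groups of cells carried a plasmid (ppyCAG) for V5-tagged, catalytically inactive RNASEH1, which binds RNA:DNA hybrids without cutting them, and a V5 antibody brought the transposase to the bound DNA. The groups differed in the hairpin, a control (shCtrl) or one against the cytidine deaminase APOBEC3B (shA3B), with 1 library each. The labels do not say which hairpin sequence was used or whether the cells came from 1 clone.

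The deposited list gives 562 regions, which the authors obtained as different in shA3B and shCtrl. It holds positions only, so a gene "with a region" below is a gene where the hybrid signal was called as different, and the list carries no direction for any gene. The list gives no depth and no level, so neither the knockdown nor the identity of the cells can be checked from it. There was no replicate check, and no test of the knockdown was possible. The intervals below are 95% intervals that treat genes as independent draws, which neighbouring genes and identical copies are not, and they cover counting error only.

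tRNA genes are short and are transcribed by RNA polymerase III. Their promoter lies inside the gene, as an A box in the part that encodes the D arm and a B box in the part that encodes the T arm. TFIIIC binds both boxes and places TFIIIB upstream of the start, and a run of T on the coding strand ends transcription. The genes of chromosome 6 lie among and beyond the replication-dependent histone genes, on the side of the major histocompatibility complex, and encode most isotypes, with many identical copies.

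Of the 144 members, 42 had a region (29.2%, 95% Wilson interval 22.4 to 37.1) and 102 had none. Over all nuclear tRNA genes the share was 35.4%. Members with a region came from 14 of the 19 isotypes and 23 of the 38 anticodon families present. Every one of the 42 lay wholly inside its region.

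The sequences that follow were read from GRCh38 at the RefSeq positions, on the strand that carries the tRNA, and are written 5′ to 3′. Capitals mark the anticodon in the first part of the gene and the B box in the second. The first 5 are shown because identical genes in the cluster with this sequence were found both with and without a region.
iMet-CAT (initiator methionine), with a region in 5 of 6 genes: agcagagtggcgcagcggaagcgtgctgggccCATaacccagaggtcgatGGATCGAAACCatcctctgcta
Arg-ACG2, in 1 of 3 genes: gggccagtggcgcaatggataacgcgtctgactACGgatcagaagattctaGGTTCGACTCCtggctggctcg
Arg-ACG1, in 1 of 2 genes: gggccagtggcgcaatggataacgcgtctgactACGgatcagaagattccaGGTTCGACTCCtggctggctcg
Asp-GTC2, in 1 of 2 genes: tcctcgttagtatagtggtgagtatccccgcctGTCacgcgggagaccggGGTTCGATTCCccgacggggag
Gln-CTG1, in 1 of 2 genes: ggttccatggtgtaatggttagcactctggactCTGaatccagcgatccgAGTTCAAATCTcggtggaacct

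The next 4 are shown because nearly identical or identical sequences stood on one side only. They were chosen after their values were seen.
Ser-AGA2, in 0 of 4 genes: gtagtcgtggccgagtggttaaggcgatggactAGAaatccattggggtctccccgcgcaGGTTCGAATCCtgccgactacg
Ser-AGA1, in its only gene: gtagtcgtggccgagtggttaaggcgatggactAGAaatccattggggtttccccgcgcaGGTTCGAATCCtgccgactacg
Ser-TGA3, in its only gene: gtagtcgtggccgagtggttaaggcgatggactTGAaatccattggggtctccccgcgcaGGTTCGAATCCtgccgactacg
Gln-TTG3, in 3 of 3 genes: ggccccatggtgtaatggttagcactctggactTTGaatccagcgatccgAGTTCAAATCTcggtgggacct

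A last pair is shown for the repeated stretch described next. TRA-AGC11-1 stands alone in the genome and had a region. TRA-AGC14-1 has an identical, inverted copy, TRA-AGC14-2, and neither had one. Their sequences differ by 6 edits, and both are alanine genes with anticodon AGC.
Ala-AGC11, in its only gene: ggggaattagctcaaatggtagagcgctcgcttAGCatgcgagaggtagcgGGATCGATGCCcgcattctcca
Ala-AGC14, in 0 of 2 genes: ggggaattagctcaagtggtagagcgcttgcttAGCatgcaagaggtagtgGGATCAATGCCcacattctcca

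The first comparison was by position. With a gap of 100 kb or more as the boundary, the members fell into 7 blocks. The first, chr6:26286526-26331515, held 13 genes, of which 6 had a region. The second, chr6:26521208-26828299, held 31 genes and 10 with a region. The share was lower in its far part, where no gene from 26673362 onward had one.

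The middle of the cluster carried most of the rest. The third block, chr6:27020346-27335062, had a region at 7 of 21 genes, and the fourth, chr6:27478812-27795932, at 16 of 33. The fifth consisted of the pair TRX-CAT1-7 (initiator methionine) and TRG-GCC2-3 (glycine), both in 1 region. The single gene of the sixth block, TRS-GCT5-1 (serine), had none.

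The last block, chr6:28474552-28989083, was the largest in genes and almost empty of regions. It held 43 genes and 1 with a region, TRT-TGT1-1 (threonine), which is also the first gene of the block. By 1 Mb bins, the share with a region was 36.4% of 44 genes from 26 Mb, 44.6% of 56 genes from 27 Mb and 1 of 44 genes from 28 Mb.

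The genes without a region were then set against how often their sequence recurs in the assembly. The authors had dropped reads of low mapping quality, and a read that fits more than 1 place in the genome equally well receives a low quality. For each gene and 500 bp on either side, the share of 31-base words that occur nowhere else in the assembly was counted, alternate contigs included. Of the 144 members, 87 had over 50% unique words and 57 had fewer. All 42 members with a region were among the 87 (48.3%, 95% Wilson interval 38.1 to 58.6), and 0 of the 57 had one (upper Wilson limit 6.31%). The same held outside the cluster, where 115 of 222 genes with over 50% unique words (51.8%) and 0 of the other 77 had a region. The 50% split was added after the list had been seen. The limit for the 57 covers counting error only, and whether a region could be called at these genes was not tested.

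The 57 genes lay in 2 stretches. From 28537590 onward, 40 members had at least 89.2% of their words in an alternate contig, a second version of part of the chromosome in the assembly. These 40 included all 6 phenylalanine genes, all 5 Ala-TGC genes and the only glutamate gene, TRE-CTC1-6. From 26673362 to 26828299, 17 members had most of their words repeated on the main chromosomes.

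The stretch of 17 is largely a pair of inverted arms, in which identical genes lie on opposite strands. Of the 17, only TRI-AAT6-1 has no identical copy. TRA-AGC14-1, on the plus strand at 26673362, has the same sequence as TRA-AGC14-2, on the minus strand at 26828227, and the midpoint of their starts is at 26750794.5. For TRA-AGC12-1, TRA-AGC10-1 and TRM-CAT5-1 (elongator methionine) and their copies on the opposite strand, the midpoint is at 26750798. For TRI-AAT7-1 (isoleucine) and TRA-AGC9-1 and their copies it is at 26750807. Near the centre, TRM-CAT4-2 had 54.8% unique words and TRI-AAT6-1 had 41.3%, and neither had a region.

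On alternate contigs, which lie outside the member count, 2 listed regions held the exact sequence of a member. One of 315 bp held that of TRA-TGC2-1, and one of 206 bp held that of TRA-AGC5-1, both alanine genes of the last block that had no region on the main chromosome. Which version of the sequence these reads came from cannot be told apart from the list. The part of the mapping filter in the empty stretches was not tested, since the list holds no reads.

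**Figure D1:**
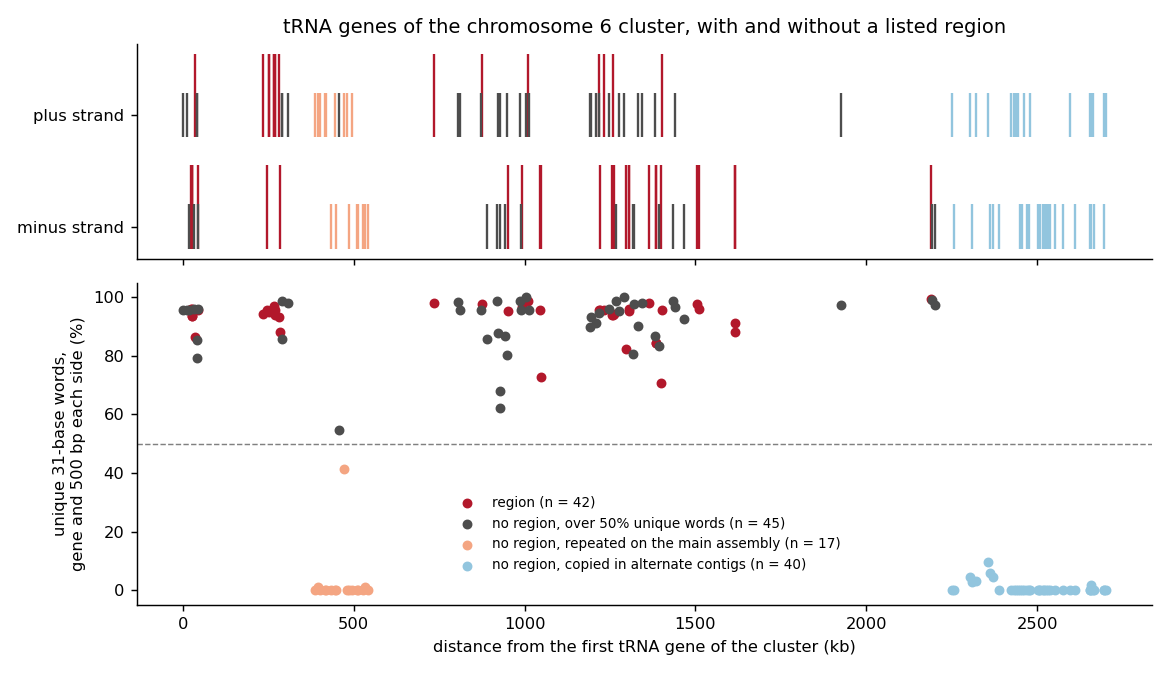
Top, the 144 members along the cluster by distance from the first gene (kb) and strand, with tall red lines for the 42 genes with a region. Bottom, the share of unique 31-base words (%) in each gene and 500 bp on either side, with the 50% line dashed. All 42 genes with a region lie above the line, and the 17 genes repeated on the main assembly and the 40 copied in alternate contigs lie in 2 stretches without any.

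Against the other 299 nuclear tRNA genes, of which 115 (38.5%) had a region, the share in the cluster was lower by 9.29 percentage points, with a Newcombe interval of the difference from -18.1 to 0.228. Among genes with over 50% unique words the difference was -3.53 points (-15.6 to 8.72), and without the genes copied in alternate contigs it was -0.108 points (-10.8 to 10.99). These intervals included 0. With only genes that hold the B box motif described below, 35 of 123 in the cluster against 110 of 266 outside, the difference was -12.9 points (-22.3 to -2.61) and its interval did not include 0. Among genes with both the motif and over 50% unique words it was -7.35 points (-20.0 to 5.70). Whether the cluster differed from the rest thus depended on which genes were compared. All values below that are given for unique sequence refer to the 87 members with over 50% unique words.

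By isotype, glutamine and initiator methionine had the highest shares among isotypes with 5 or more members. All 7 glutamine genes in unique sequence had a region, namely TRQ-TTG3-1, TRQ-TTG3-2, TRQ-TTG3-3, TRQ-CTG1-2, TRQ-CTG2-1, TRQ-CTG5-1 and TRQ-CTG6-1. The other 2, TRQ-TTG2-1 and TRQ-CTG1-3, lie in the last block and are copied in alternate contigs. Outside the cluster, 2 of 7 glutamine genes in unique sequence had a region. TRQ-TTG3-1 and TRQ-TTG3-2 are identical and share 1 region, but were counted as 2 genes. The Wilson intervals were 64.6 to 100% in the cluster and 8.22 to 64.1% outside, barely apart. Glutamine was picked out of 9 isotypes because of this gap, so the gap is a description.

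Initiator methionine, the tRNA that starts every protein chain, had a region at 5 of 6 genes (83.3%, 43.6 to 96.99). TRX-CAT1-3 and TRX-CAT1-4 lie in the first block, TRX-CAT1-5 in the third, TRX-CAT1-6 in the fourth and TRX-CAT1-7 in the fifth. The exception, TRX-CAT1-2 (chr6:26286526-26286597), is the first gene of the cluster and the only one of the 6 on the plus strand. Its nearest region was 790 bp away, and 95.5% of its words were unique. Genes for elongator methionine, which decodes internal AUG codons, had a region at 0 of 7, but only TRM-CAT4-2 among them was in unique sequence.

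Alanine is the isotype with most members and the lowest share among those with any region. Of its 27 genes 2 had a region, TRA-CGC1-1 and TRA-AGC11-1, and these were the only alanine genes in unique sequence. The other 25 comprised 10 in the inverted arms and 15 copied in alternate contigs. By anticodon this was 1 of 19 for Ala-AGC, 1 of 3 for Ala-CGC and 0 of 5 for Ala-TGC. Outside the cluster, 6 of 8 alanine genes in unique sequence had a region.

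Serine differed within the isotype, with 5 of 16 genes in unique sequence having a region. All 3 Ser-TGA genes had one (TRS-TGA2-1, TRS-TGA3-1 and TRS-TGA4-1). None of the 5 Ser-GCT genes did, 4 of which are in unique sequence. Of the 7 Ser-AGA genes, all in unique sequence, only TRS-AGA1-1 had a region, and of the 2 Ser-CGA genes only TRS-CGA3-1.

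The serine sequences printed above set the presence of a region against single bases. TRS-AGA2-1 and its 3 identical copies differ from TRS-AGA1-1 by C50T and from TRS-TGA3-1 by A34T, the first base of the anticodon, with positions counted from 1 at the 5′ end. TRS-AGA1-1 and TRS-TGA3-1 had a region and the 4 copies of TRS-AGA2 had none, although TRS-AGA2-4 lay only 34 bp from one. TRS-AGA3-1, which differs from TRS-AGA2-1 by C50T and G56A, had none either, at 96.0% unique words. TRS-TGA2-1, with A34T and C50T, had a region, so C50T was found both with and without one. In the whole genome 1 of the 6 genes with the TRS-AGA2 sequence had a region. All 4 copies in the cluster are on the plus strand, with 79.3 to 94.7% unique words.

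Leucine had a region at 1 of 6 genes in unique sequence, TRL-CAG1-7, against 9 of 13 outside the cluster. The Wilson intervals, 3.01 to 56.4% and 42.4 to 87.3%, overlapped. None of the 4 Leu-CAA or 3 Leu-AAG genes had one, of which 2 and 1 are in unique sequence. Both Leu-TAA genes were in unique sequence and without a region.

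Threonine had a region at 4 of 7 genes in unique sequence, TRT-AGT2-1, TRT-AGT2-2, TRT-AGT6-1 and TRT-TGT1-1. None of the 3 Thr-CGT genes had one, and 2 of these are in unique sequence. Arginine had 3 of 8 (TRR-TCG2-1, TRR-ACG1-2 and TRR-ACG2-4), and the 11 of 15 outside gave a Wilson interval of 48.0 to 89.1% against 13.7 to 69.4% in the cluster. Isoleucine had 4 of 9 (TRI-AAT2-1, TRI-AAT5-1, TRI-AAT5-3 and TRI-TAT2-2).

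Valine had a region at 3 of 8 genes in unique sequence (TRV-CAC1-6, TRV-CAC2-1 and TRV-AAC3-1) and lysine at 3 of 4 (TRK-CTT2-4, TRK-TTT4-1 and TRK-TTT6-1). Aspartate had 2 of 3 (TRD-GTC2-7 and TRD-GTC3-1), tyrosine 1 of 4 (TRY-GTA1-1), proline 1 of 2 (TRP-AGG2-2) and glycine its single gene, TRG-GCC2-3. The 2 tryptophan genes, TRW-CCA3-1 and TRW-CCA3-2, and the histidine gene TRH-GTG1-5 were in unique sequence and had none. Asparagine, cysteine and selenocysteine have no gene in the cluster.

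**Figure D2:**
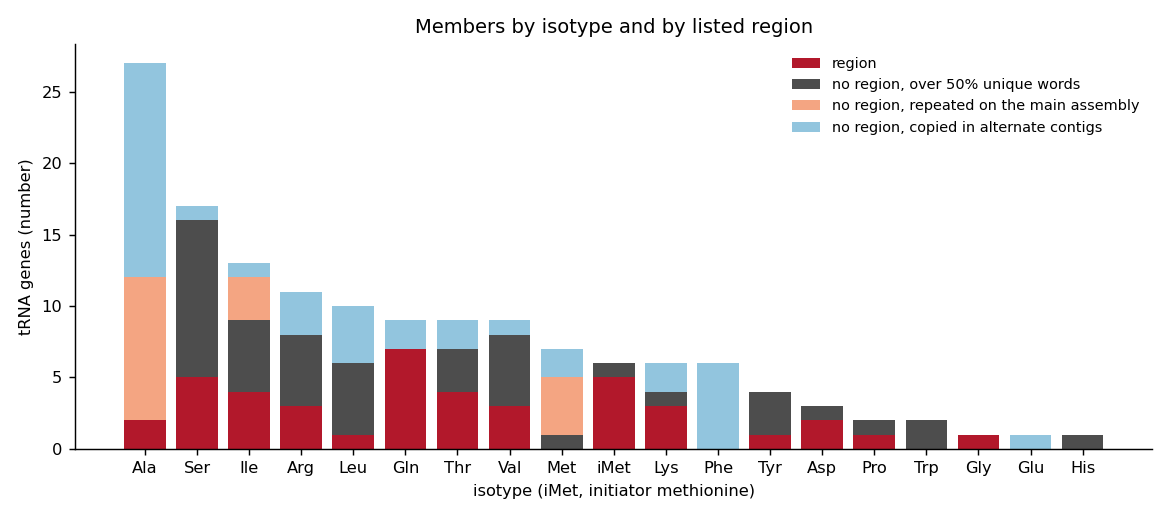
Number of member genes by isotype, split into genes with a region (red), genes without one in unique sequence (dark grey), and genes without one in sequence repeated on the main assembly (orange) or copied in alternate contigs (blue). Over all members, glutamine has a region at 7 of 9 genes, alanine at 2 of 27 and serine at 5 of 17. In unique sequence the counts are 7 of 7, 2 of 2 and 5 of 16.

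**Figure D3:**
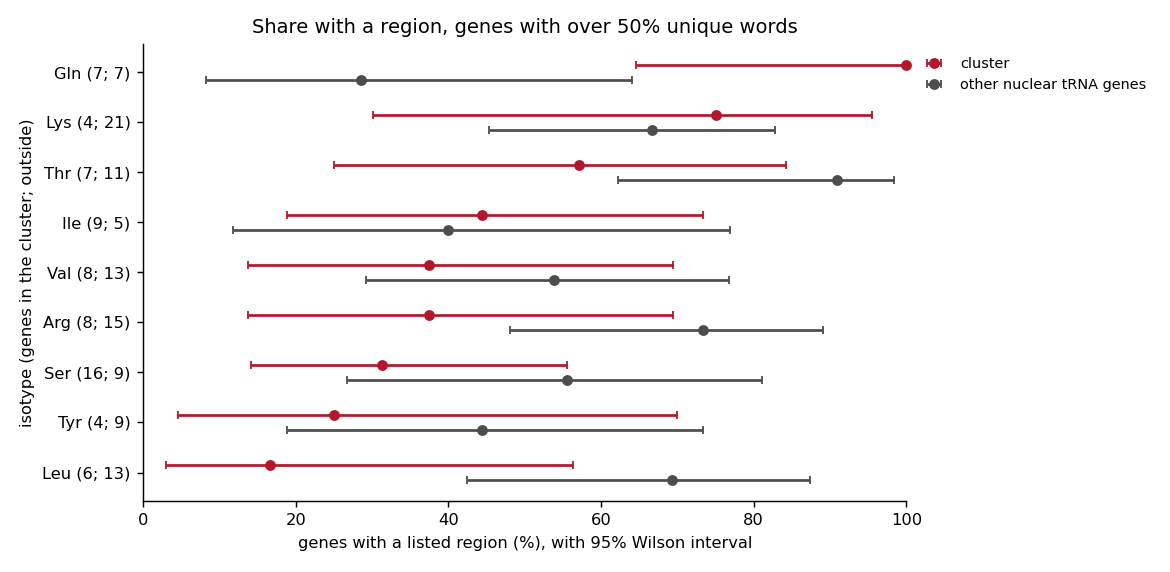
Share of genes with a region (%) and its 95% Wilson interval for the 9 isotypes with at least 4 genes in unique sequence both in the cluster (red) and outside it (grey), with the gene numbers in the labels. Glutamine is the isotype where the intervals do not overlap, by a narrow margin, at 7 of 7 and 2 of 7 genes. In the cluster, 2 of its genes are identical and share 1 region.

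Identical copies within the cluster did not always share a state. The 5 sequences printed first above each occurred with and without a region. TRR-ACG2-4 (chr6:27670565-27670637) had a region of 248 bp, while TRR-ACG2-2 and TRR-ACG2-3, 1256 bp apart, were 23249 and 21920 bp from the nearest region. Their unique words were fewer, at 68.0% and 62.0% against 84.3%.

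TRR-ACG1, which differs from TRR-ACG2 by C50T, showed the same mixture. TRR-ACG1-2 (chr6:26537498-26537570) had a region of 2671 bp, and TRR-ACG1-1 (chr6:26328140-26328212) lay 1954 bp from the nearest. TRD-GTC2-7 had a region and TRD-GTC2-6 was 6206 bp from one. In both pairs the 2 genes were on the plus strand, so strand did not separate them.

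TRQ-CTG1-2 had a region of 1477 bp, and its copy TRQ-CTG1-3 is 1 of the genes copied in alternate contigs.

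Several other sets were uniform. The 3 copies of TRQ-TTG3 and both copies of TRT-AGT2 all had a region and all lie on the minus strand. The 4 copies of TRS-AGA2 and both copies of TRW-CCA3 had none, all in unique sequence, with TRS-AGA2-4 at 34 bp from a region. Over the 87 genes in unique sequence, 21 of 36 with an identical copy anywhere in the genome had a region (58.3%), against 21 of 51 with a sequence of their own (41.2%). The difference was 17.2 points, with an interval from -3.98 to 36.3 that included 0. Outside the cluster the same counts were 65 of 107 and 50 of 115.

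The next comparison was by strand. The members are split almost evenly, 70 on the plus and 74 on the minus strand. A region was present at 16 of the 70 (22.9%) and 26 of the 74 (35.1%), a difference of -12.3 points (-26.3 to 2.59). In unique sequence the counts were 16 of 45 (35.6%) and 26 of 42 (61.9%), a difference of -26.3 points (-44.3 to -5.35). Outside the cluster they were 57 of 111 and 58 of 108 on the plus and minus strand.

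Initiator methionine and serine genes carried much of the strand difference, which was not computed by isotype. The initiator methionine genes alone placed 5 genes with a region on the minus strand and 1 without on the plus strand, and the 4 plus-strand copies of TRS-AGA2 had none. Counting a region with 2 genes on the same strand once left a difference of -25.3 points (-44.0 to -3.67). Genes without the B box motif, 21 members of which 6 are for initiator methionine, were then left out. The difference was then -20.4 points (-40.3 to 2.09) in unique sequence, at 16 of 43 plus-strand and 19 of 33 minus-strand genes, and -6.27 points (-21.8 to 9.54) over all members. Both intervals included 0. The strand difference was 1 of 10 computed before such alternatives, and its interval was not widened for that number.

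A second difference had an interval without 0. Of 18 genes in unique sequence with another member within 1 kb, 13 had a region (72.2%), against 29 of 69 without such a neighbour (42.0%), a difference of 30.2 points (4.27 to 49.0). Regions that span both neighbours make up most of this count, since 12 of the 13 genes shared their region with another member. There were 6 regions with 2 members each and 30 with 1, and none had 3 or more. The pairs were TRQ-TTG3-1 with TRQ-TTG3-2, TRS-TGA3-1 with TRX-CAT1-3, TRR-ACG1-2 with TRV-CAC1-6, TRA-CGC1-1 with TRI-AAT5-1, TRK-TTT4-1 with TRX-CAT1-6, and TRX-CAT1-7 with TRG-GCC2-3.

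**Figure D4:**
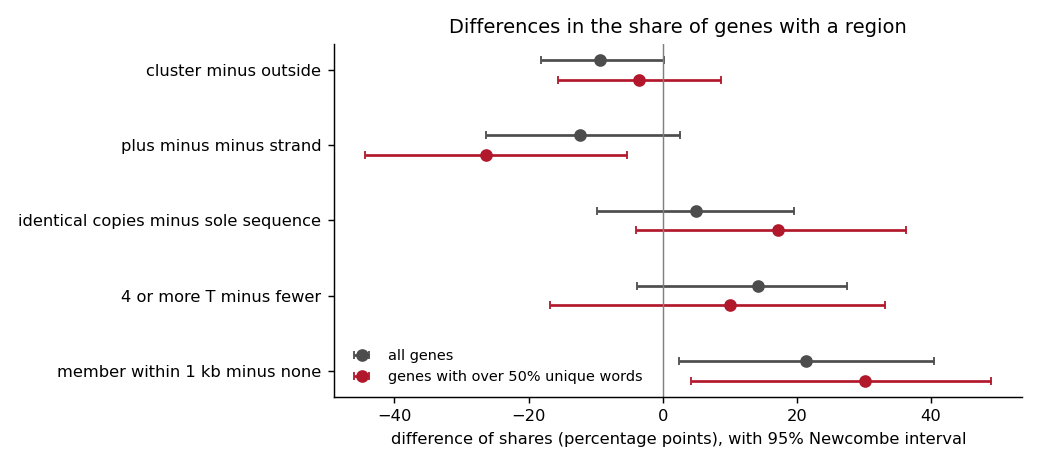
Differences in the share of genes with a region (percentage points) with 95% Newcombe intervals, over all genes (grey) and over genes with over 50% unique words (red). In unique sequence the intervals for strand (-26.3 points) and for a neighbour within 1 kb (30.2 points) lie on one side of 0, and the other 3 include it.

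Sequence elements of RNA polymerase III were set against the regions. The B box core GTTCNANNC, searched anywhere in the gene on the tRNA strand, was held by 123 of the 144 members (85.4%) and by 87.8% of all nuclear tRNA genes. A region was present at 35 of the 76 genes in unique sequence with this motif and at 7 of the 11 without it. The 7 were the 5 initiator methionine genes, whose B box reads differently in the sequence above, with TRA-AGC11-1 and TRV-AAC3-1. In the cluster the share with a region was thus not higher among genes that hold the motif. Outside it the direction was the other. There, 110 of 206 genes in unique sequence with the motif had a region, against 115 of 222 with or without it.

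The terminator gave no clear split either. A run of at least 4 T within 30 bases after the gene was present at 111 members. In unique sequence 36 of 72 genes with such a run and 6 of 15 without it had a region, a difference of 10.0 points (-16.7 to 33.1). Of the 9 genes in unique sequence longer than 85 bases, a length that marks an intron in these families, 2 had a region (TRY-GTA1-1 and TRI-TAT2-2), against 40 of 78 shorter genes.

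Genes close to the central sequence of their anticodon family and genes farther from it were both found with a region. Among intronless genes in unique sequence, the counts were 30 of 58 at 0 to 2 edits, 9 of 15 at 3 to 6 edits and 1 of 5 at over 6 edits. The GC content of the flanks had a median of 42.7% (41.2 to 44.4) at genes with a region and 41.9% (40.7 to 44.3) at genes without one in unique sequence. Their medians of unique words were 95.5% and 95.6%.

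Most members lie between genes. By GENCODE release 44, 35 members lay in introns, 8 touched an exon and the others were intergenic. In unique sequence the counts with a region were 13 of 28 intronic, 4 of 4 exonic and 25 of 55 intergenic genes. The 4 exonic genes were TRI-TAT2-2, in the non-coding LINC00240, and TRI-AAT5-1, TRA-CGC1-1 and TRT-AGT2-1, in the unnamed locus ENSG00000291336 or, for TRT-AGT2-1, the overlapping ENSG00000291338.

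The cluster lies among 53 histone genes, but its tRNA genes with a region lie away from histone promoters. The closest of them, TRX-CAT1-7, was 9103.5 bp from a histone TSS, and no region at a member was wider than 2671 bp. Among members without a region the closest was TRX-CAT1-2, at 923.5 bp. Of the 36 regions that held a member, 0 had the midpoint within 3 kb of a histone TSS, and for 1 of the 36 a protein-coding TSS lay inside that distance. That one, with TRR-ACG1-2 and TRV-CAC1-6, lay 272 bp from the TSS of HMGN4, which encodes a nucleosome-binding protein. Of the other 23 regions between 26 and 29 Mb, 10 were within 3 kb of a histone TSS. Among all members, with or without a region, only TRX-CAT1-2 lay within 3 kb of a histone TSS. The count of 0 of the 36 is therefore not particular to genes with a region. Whether regions at tRNA genes avoid histone promoters was not tested.

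The 36 regions had a median width of 906 bp (565 to 1359) and ranged from 248 to 2671 bp. The 78 regions at tRNA genes elsewhere had a median of 1316.5 bp (1188 to 1555). The median was 1014 bp (960 to 1070) over all 562 listed regions. It was 749 bp (516 to 1202) over the other 23 regions between 26 and 29 Mb. The narrowest of the 36, at TRR-ACG2-4, was a few times the length of the gene, and the widest was the region at HMGN4. Their median GC content was 45.7%.

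The distance from the centre of a gene to the midpoint of its region had a median of 164 bp (105.5 to 245.5) over the 42 genes. In the 30 regions with 1 member it was 126 bp (78 to 190.5). TRV-CAC1-6 and TRS-AGA1-1 lay almost at the midpoint, at 4 and 4.5 bp. TRQ-CTG6-1 was farthest, at 721 bp in a region of 1794 bp.

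For each isotype the gene nearest to the midpoint was noted. After those 2, TRI-AAT5-1 was at 12 bp, TRT-TGT1-1 at 28.5 bp, TRX-CAT1-4 at 29.5 bp and TRK-CTT2-4 at 33.5 bp. TRG-GCC2-3 was at 49.5 bp, TRP-AGG2-2 at 59 bp, TRR-ACG2-4 at 74.5 bp and TRA-AGC11-1 at 78 bp. TRY-GTA1-1 was at 111.5 bp, TRQ-CTG2-1 at 131.5 bp, TRD-GTC2-7 at 139.5 bp and TRL-CAG1-7 at 325.5 bp. In 10 of the 14 isotypes with a region the nearest gene was at most 78 bp from the midpoint. Each of these values is the smallest in its isotype, so the count does not measure how centred the genes were as a whole.

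Neither side of the gene was preferred at this number of regions. Among the 30 genes alone in their region, the midpoint lay downstream of the gene centre in 17 and upstream in 13, with a median of 30.25 bp downstream (-78 to 105.5). The region extended a median of 253.5 bp (85 to 554) upstream of the gene and 301 bp (168 to 449) downstream.

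**Figure D5:**
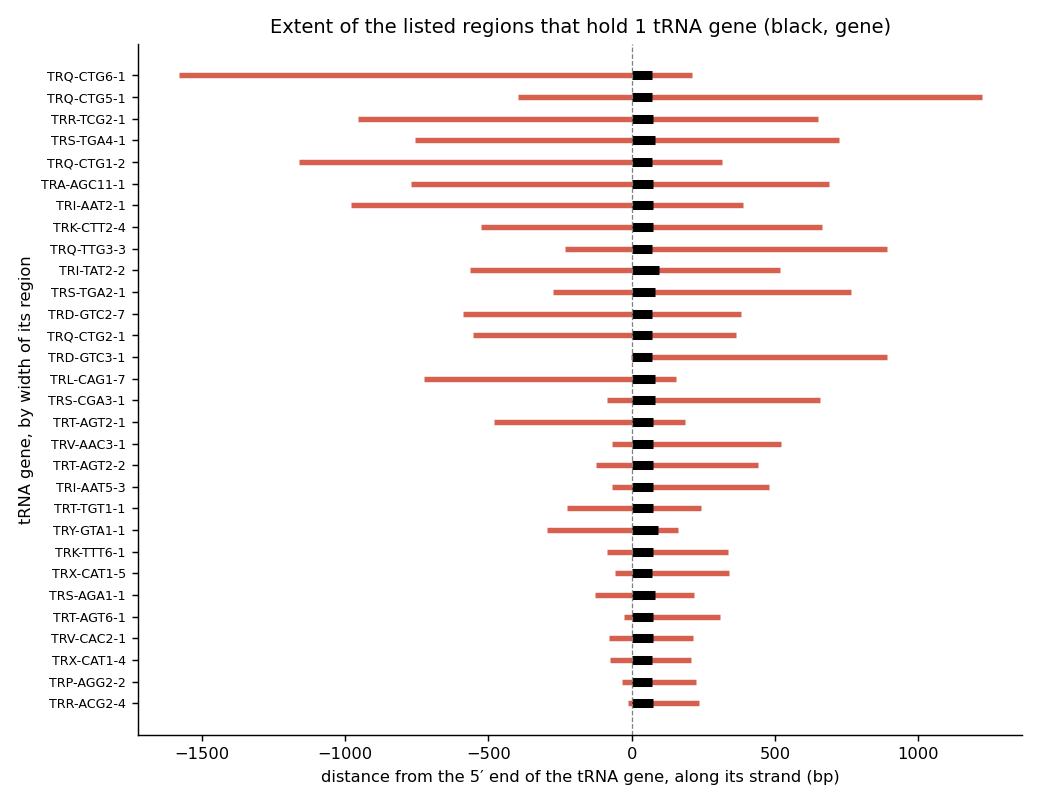
Extent of the 30 regions that hold 1 member (red lines) along the strand of the gene, from its 5′ end (bp), ordered by width, with the gene in black. Regions reach to both sides, from 4 bp upstream at the least to 1582 bp at the most, with 17 midpoints downstream of the gene centre and 13 upstream.

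A few members without a region lay beside one. TRV-AAC1-5 was 24 bp from a region and TRS-AGA2-4 was 34 bp from one, the region of TRD-GTC2-7. TRI-AAT5-2 was at 187 bp, TRX-CAT1-2 at 790 bp and TRW-CCA3-2 at 996 bp. These 5 were the only members without a region within 1 kb of one. Over the 45 genes in unique sequence without a region the median distance to the nearest was 6206 bp (4048 to 12288).

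The protein-coding genes that make and process tRNA were counted as well, from a list of 71. A region midpoint lay within 3 kb of a TSS in 3 of them (4.23%), against 2.18% of all protein-coding genes. The 3 were POLR3E, a subunit of RNA polymerase III, GTF3C6, a subunit of TFIIIC, and AARS1, the alanyl-tRNA synthetase. These were 1 of 18 polymerase subunits, 1 of 11 initiation factors and 1 of 20 synthetases. None of 3 regulators or 19 genes of end processing, splicing and export had one, and the difference from the share of all genes was not tested.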

How the data were processed

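R-loops were profiled in OMM2.3 cells in 1 shCtrl and 1 shA3B library, grouped by sample title. Per the study's methods, the authors trimmed adapters with Cutadapt 4.1, aligned read pairs to GRCh38 with Bowtie2 2.2.5 in local mode, removed duplicates with Picard 2.27.3, filtered on a mapping quality of 2 with SAMtools 1.15.1, called peaks with SEACR 1.3 and compared them with edgeR. The normalization and thresholds of that comparison are not given in the sources used here. The deposited list has 3 columns (chromosome, start and end) and 562 lines, without read counts. Depth is unknown from it. Starts were converted to 1-based positions.

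tRNA genes came from the RefSeq annotation of GRCh38.p14. Their strand was set from the GRCh38 sequence, first by the B box core ending 9 to 14 bases before the 3′ end. The anticodon at base 31 to 37 came next, then at least 7 of 10 consensus letters. All 144 members received a strand, and 11 other genes of the 443 did not. The members and gene lists were chosen with earlier results of these data known. Named genes were the gene nearest the region midpoint in each isotype, anticodon families of 3 or more with all or no genes marked, identical sequences of mixed state, and genes without a region within 1 kb of one. All members with a region were named as well. A sequence of mixed state is not reported here. Words of 31 bases were counted on both strands over the whole assembly. The split at 50% unique words was added after the list had been seen. Shares have Wilson intervals, differences Newcombe intervals and medians binomial rank intervals, at 95%, as descriptions. No p-value was computed. Overlap, strand, word counts and intervals were tested on simulated data. The tools were pysam 0.24.0, scipy 1.17.1, pandas 2.3.3, numpy 2.4.6, matplotlib 3.10.9 and Python 3.11.15, with edlib for edit distances.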

Additional observations from a re-analysis of the deposited data

How the results depend on the processing

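The 7 main results were recomputed under 41 alternatives, 8 of them chosen after seeing the data, and 33 stayed within the 95% interval of the main value. The share of members with a region, 29.2%, was 14.6% with the wider 50% of regions, 40.4% without genes copied in alternate contigs and 48.3% in unique sequence. The last 2 leave out genes that had no region. The share outside the cluster, 38.5%, was 29.8% when the midpoint had to lie within 500 bp of the gene, 29.4% with the wider 50% of regions, 32.1% with genes within 1 kb joined and 51.8% in unique sequence. The strand difference, -12.3 points, was -26.3 points in unique sequence. The difference between identical copies and sole sequences, 4.90 points, was 0 without genes copied in alternate contigs (-18.2 to 18.2), at 21 of 52 genes in either set. No call changed direction, since no call was made.

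No paired analysis was possible because shCtrl and shA3B have 1 library each. The list gives neither depth nor direction, so the strength of the change at any gene, and whether a gene without a region had no hybrid signal, an equal signal in both libraries or too few reads, cannot be told apart.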

Other observations

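Phenylalanine had no gene in unique sequence in the cluster, where its 6 genes are copied in alternate contigs. Outside it, 3 of 5 phenylalanine genes had a region, and 2 of the 6 genes with the TRF-GAA1 sequence did so in the whole genome. For Asp-GTC2, a sequence with 11 genes in the genome, 4 had a region, 1 of them in the cluster. For initiator methionine 7 of 8 genes had one.

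Some regions stood close together without joining. The region with TRQ-TTG3-1 and TRQ-TTG3-2 ended at 26312034 and that with TRS-TGA3-1 and TRX-CAT1-3 began at 26312126, so that 4 genes of 3 isotypes lay in neighbouring regions. Likewise, the region with TRA-CGC1-1 and TRI-AAT5-1 ended at 26555143, that of TRP-AGG2-2 ran from 26555236 to 26555493, and that of TRK-CTT2-4 began at 26556021.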
